A study of Homo sapiens with 6 samples.

Results

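Transforming growth factor beta (TGF-beta) and bone morphogenetic protein (BMP) signalling was followed through 9 genes of SW1353 cells, an established human chondrosarcoma line: the ligands TGFB1 and TGFB2, the receptor TGFBR2, the signal transducer SMAD3, the inhibitory SMADs SMAD6 and SMAD7, and the target genes ID1, ID3 and TGFBI. They were chosen by symbol, with earlier results of these data known. All 9 matched a row of the deposited table of 60691 genes, and all 9 were among the 16591 genes with enough reads to be tested. RNA was sequenced from 6 libraries of cells kept for 48 h after seeding in 3% oxygen, so both groups were hypoxic. In the shSIRT1 group (3 libraries) the cells carried a lentiviral short hairpin RNA whose label names SIRT1, the gene of a deacetylase that depends on NAD+, and in the shfirefly group (3 libraries) a lentiviral hairpin against firefly luciferase, a gene that human cells lack. The treatment protocol names EPAS1, the gene of hypoxia-inducible factor HIF-2α, in place of SIRT1 as the hairpin's target. How many hairpin sequences were used is not given in the sources used here.

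The ligands TGFB1 and TGFB2 are secreted in a latent form, bind the kinase receptor TGFBR2 together with TGFBR1, and signal through SMAD2 and SMAD3. BMPs use other receptors and signal through SMAD1, SMAD5 and SMAD9, and both arms share SMAD4. SMAD6 and SMAD7 are made in response to the signal and block it, SMAD6 mainly the BMP arm and SMAD7 both arms. In cartilage TGF-beta and BMPs govern the formation of chondrocytes and their matrix.

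Total counts were 24993064 to 29564361 in the shSIRT1 libraries and 28556696 to 32044191 in the shfirefly libraries, and levels are given in CPM, the share of a library's counts on a scale of 1e+06, with TMM-scaled library sizes. SIRT1 averaged 13.6 ± 0.953 CPM in shSIRT1 cells, against 24.9 ± 0.984 CPM in shfirefly cells, and EPAS1 233 ± 10.5 CPM in shSIRT1 cells, against 456 ± 40.8 CPM in shfirefly cells (SD, n = 3), log2 fold changes of -0.88 and -0.97 (adjusted p = 2.3e-09 and 5.8e-07). Both named targets of the hairpin were thus lower, and shSIRT1 stands below for the libraries labelled so. Of 15 chondrocyte markers 7 had enough reads to be tested, of which 3 were called higher and 3 lower in shSIRT1. Among all tested genes 26.8% were called higher and 26.0% lower. The higher call of MATN3, 1 of the markers, did not hold in every setting (adjusted p = 0.13 with DESeq2). SOX9, the master regulator of cartilage, stood at 53.1 ± 1.17 CPM in shSIRT1 cells, against 43.7 ± 2.54 CPM in shfirefly cells (SD, n = 3). The cartilage collagen gene COL2A1 had too few reads to be tested, with 8, 19 and 3 counts in the shSIRT1 libraries, against 2, 1 and 0 in the shfirefly libraries. Its means were 0.332 and 0.0340 CPM, and COL9A1 had no reads in any library. Other cartilage matrix genes were detected at low levels: the aggrecan gene ACAN averaged 0.679 and 1.51 CPM in shSIRT1 and shfirefly (adjusted p = 0.0018), the link protein gene HAPLN1 4.28 and 8.08 CPM (adjusted p = 1.9e-06), and the collagen gene COL9A2 1.30 and 0.505 CPM (adjusted p = 0.0013). Their part in the results below was not tested. The summed level of 12 leukocyte, endothelial and epithelial markers was 3.32 to 4.83 CPM in shSIRT1 and 5.11 to 6.001 CPM in shfirefly libraries; 3 counts, the limit for a gene without reads, are 0.0968 to 0.115 CPM.

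Of the 9 genes, 6 were lower in shSIRT1, 2 were higher and 1 did not pass the test. TGFB1, TGFBR2, SMAD3, SMAD7, TGFBI and, by a small margin, ID1 fell, SMAD6 and ID3 rose, and TGFB2 did not pass. The fall of ID1 did not hold under every scaling of the counts: its log2 fold change was 0.02 when library totals alone were used and 0.05 with a correction for the GC content and length of transcripts. The test was edgeR's quasi-likelihood F test with Benjamini-Hochberg adjustment over all genes tested, at an adjusted p under 0.05. Changes were widespread in these cells: 52.8% of all tested genes were called, 26.0% lower and 26.8% higher. The 9 genes were chosen with earlier results of these data known, so the 8 of 9 called says nothing about the pathway. All but SMAD6 and SMAD7 also had a mean level above that of 87% of tested genes, which these shares do not take into account. For 8 of the 9 genes all shSIRT1 libraries lay on the same side of all shfirefly libraries, which held for 59.7% of all tested genes. DESeq2 called 7 of the 9, all but TGFB2 and ID1, against 38.8% of the 19477 genes for which it gave an adjusted p. The median log2 fold change was -0.36 over the 9 genes and 0.0047 over all tested genes. In these bulk samples fewer expressing cells and less RNA per cell cannot be told apart.

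**Figure D1:**
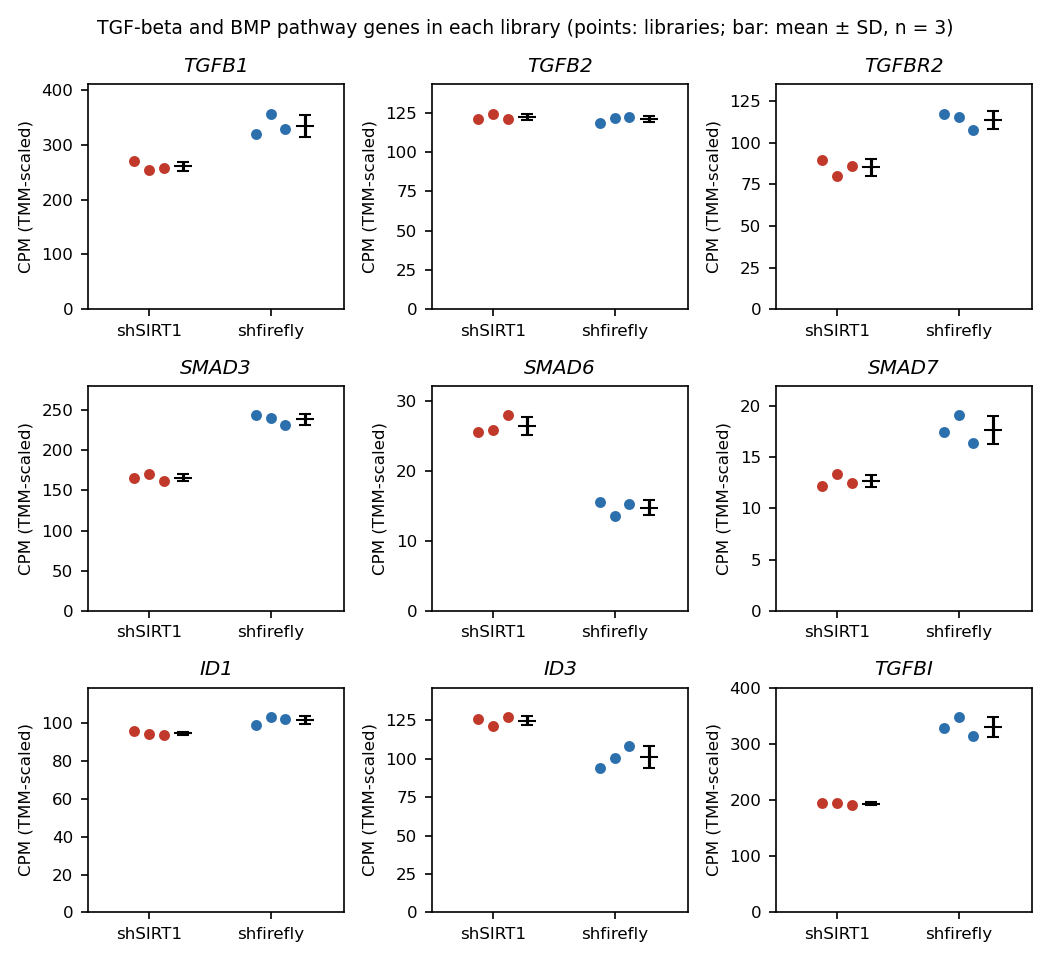
Levels of the 9 genes in CPM (linear axes from 0) in each shSIRT1 library (left, red) and each shfirefly library (right, blue), with the mean ± SD of 3 libraries as a bar. The groups are apart for every gene other than TGFB2, whose libraries lie between 119 and 124 CPM; SMAD6 and ID3 are higher in shSIRT1, and the small gap of ID1 (94.6 and 102 CPM) does not keep its direction when library totals alone or a GC and length correction are used.

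The upstream sequence of 3 of the genes is shown because they stand for the responses seen: SMAD6 for the largest rise, ID1 for a gene that hardly moved, and TGFBI for the largest fall. The sequences are RefSeq's (GRCh38.p14, forward strand, 5′ to 3′). They end at the base before the RefSeq start of SMAD6 (chr15:66701986-66702235) and of ID1 (chr20:31605039-31605288). For TGFBI the end is the base before its earliest annotated start (chr5:136028738-136028894). The last 8 bases for SMAD6 and the last 6 for ID1 lie within the gene as annotated by GENCODE. Capitals mark matches on either strand to GTCTAGAC, the palindromic SMAD-binding element, CAGAC, the shorter SMAD box, GGCGCC, a GC-rich element bound by SMADs, and ACGTG or GCGTG, the core of the hypoxia response element.
SMAD6: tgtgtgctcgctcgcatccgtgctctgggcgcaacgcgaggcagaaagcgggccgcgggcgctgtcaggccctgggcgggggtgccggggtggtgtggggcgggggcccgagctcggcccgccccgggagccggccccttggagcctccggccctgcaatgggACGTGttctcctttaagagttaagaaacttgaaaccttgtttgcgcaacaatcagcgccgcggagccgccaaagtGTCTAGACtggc
ID1: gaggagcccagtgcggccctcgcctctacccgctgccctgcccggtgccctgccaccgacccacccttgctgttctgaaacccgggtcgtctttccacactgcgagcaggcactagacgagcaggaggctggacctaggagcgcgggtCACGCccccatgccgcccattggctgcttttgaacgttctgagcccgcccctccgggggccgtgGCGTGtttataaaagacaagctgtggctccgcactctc
TGFBI: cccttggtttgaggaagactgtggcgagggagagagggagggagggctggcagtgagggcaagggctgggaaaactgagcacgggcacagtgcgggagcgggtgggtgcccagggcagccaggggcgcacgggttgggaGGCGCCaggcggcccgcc
The palindrome GTCTAGAC begins 12 bases before the RefSeq start of SMAD6, and the gene's GENCODE start (66702228) lies within the palindrome. Of 35116 RefSeq windows of the same kind (250 bases before to 50 after a start), 0.202% hold the palindrome. None of the other 15 windows of the 9 genes does. SMAD6 has ACGTG at -87, found in 21.4% of windows, and ID1 has GCGTG at -102 and -38, found in 36.5%. TGFBI has GGCGCC at -111 from its RefSeq start, found in 19.2% of windows, and no match to CAGAC, which 45.3% of windows hold. A match describes the letters of the window and not a bound site.

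Among the ligands TGFB1 fell, and TGFB2 did not pass the test. TGFB1, the most widely expressed of the TGF-beta ligands, lies on chromosome 19 (41301587 to 41353911, reverse strand; GRCh38, GENCODE 29). It had 269, 254 and 257 CPM in the shSIRT1 libraries, against 319, 356 and 328 CPM in the shfirefly libraries. Every shSIRT1 library was below every shfirefly library, with means of 260.3 ± 8.01 CPM and 334 ± 19.5 CPM (SD, n = 3) in shSIRT1 and shfirefly and a 1.28-fold lower mean (log2 difference -0.36, SE 0.04, adjusted p = 2.7e-07). With the GC and length correction the log2 difference was -0.21 (adjusted p = 2e-04). On the other strand TGFB1 overlaps HNRNPUL1, which encodes an RNA-binding protein and was higher in shSIRT1 (log2 fold change 0.24, adjusted p = 1.5e-05), and 3 other annotated genes; whether counting used the strand is not given in the sources used here, and reads may be mixed there.

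TGFB2 encodes a ligand that needs the co-receptor TGFBR3 for strong binding to TGFBR2 and lies on chromosome 1 (218346235 to 218444619, forward strand). Its level was 121, 124 and 121 CPM in the shSIRT1 libraries and 119, 122 and 122 CPM in the shfirefly libraries. The groups overlapped, and the difference had an approximate 95% interval of -0.06 to 0.09 on the log2 scale (log2 fold change 0.02, adjusted p = 0.75). TGFB2 moved with the scaling: it was 0.14 (adjusted p = 0.0037) with library totals alone and -0.14 (adjusted p = 0.0096) with the GC and length correction, or -0.14 (adjusted p = 0.0023) when the replicate block was added to that correction. Its longest annotated transcript, coding or not, has a GC content of 38.9%, the lowest of the 9 genes. By this measure the 3287 tested genes with the lowest GC content (up to 41.1%) had a median log2 fold change of 0.17, against -0.09 for the 3287 with the highest (from 57.6%). The part of base composition in the other changes was not tested beyond that correction. The third ligand, TGFB3, was scarce at 2.73 ± 0.635 CPM in shSIRT1 cells, against 2.92 ± 0.410 CPM in shfirefly cells (SD, n = 3; adjusted p = 0.69).

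The signalling receptor fell. TGFBR2, the kinase that binds the ligand and then activates TGFBR1, lies on chromosome 3 (30606502 to 30694142, forward strand). Its level was 89.9, 80.02 and 85.9 CPM in the shSIRT1 libraries, against 117, 116 and 107 CPM in the shfirefly libraries. All 3 shSIRT1 libraries were lower, with means of 85.3 ± 4.97 CPM and 113 ± 5.29 CPM (SD, n = 3) and a 1.33-fold lower mean (log2 difference -0.41, SE 0.05, adjusted p = 2.7e-07). Its partner TGFBR1 had 105 ± 1.00 CPM in shSIRT1 cells, against 106 ± 3.83 CPM in shfirefly cells (SD, n = 3), a log2 fold change of -0.01 (adjusted p = 0.82) that was 0.11 (adjusted p = 0.023) with library totals alone and -0.18 (adjusted p = 0.0019) with the GC and length correction.

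The SMADs moved in both directions. SMAD3, which carries the TGF-beta signal to the nucleus, lies on chromosome 15 (67063763 to 67195195, forward strand). It had 165, 171 and 162 CPM in the shSIRT1 libraries, against 243, 241 and 231 CPM in the shfirefly libraries. The 2 groups were far apart relative to their spread (means 166 ± 4.57 and 238 ± 6.43 CPM in shSIRT1 and shfirefly, SD, n = 3), a 1.44-fold lower mean (log2 difference -0.52, SE 0.04, adjusted p = 2.4e-10).

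SMAD6, the inhibitor of the BMP arm, lies beside SMAD3 on chromosome 15 (66702228 to 66782848, forward strand) and moved the other way. It had 25.5, 25.9 and 27.97 CPM in the shSIRT1 libraries, against 15.6, 13.5 and 15.2 CPM in the shfirefly libraries. Each shSIRT1 library was above each shfirefly library, with means of 26.5 ± 1.31 CPM and 14.8 ± 1.12 CPM (SD, n = 3) and a 1.79-fold higher mean (log2 difference 0.84, SE 0.07, adjusted p = 4.3e-09). Of all tested genes 89.7% had a smaller absolute change. An annotated gene that overlaps SMAD6 on its strand, AC013564.1, had at most 1 read in any library.

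SMAD7, the inhibitor of both arms, lies on chromosome 18 (48919853 to 48952052, reverse strand) and overlaps no annotated gene. It had 12.2, 13.3 and 12.5 CPM in the shSIRT1 libraries, against 17.5, 19.1 and 16.4 CPM in the shfirefly libraries. It was lower in all 3 shSIRT1 libraries, with means of 12.7 ± 0.602 CPM and 17.7 ± 1.36 CPM (SD, n = 3) and a 1.39-fold lower mean (log2 difference -0.48, SE 0.08, adjusted p = 4.3e-05). The inhibitory SMADs thus parted, and their ratio within a library, which needs no scaling between libraries, shows it directly. There were 2.09, 1.94 and 2.25 SMAD6 reads for each SMAD7 read in the shSIRT1 libraries, against 0.892, 0.707 and 0.929 in the shfirefly libraries, a 2.48-fold higher mean ratio. These ratios, and those below, were chosen after the values were seen and were not tested.

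**Figure D2:**
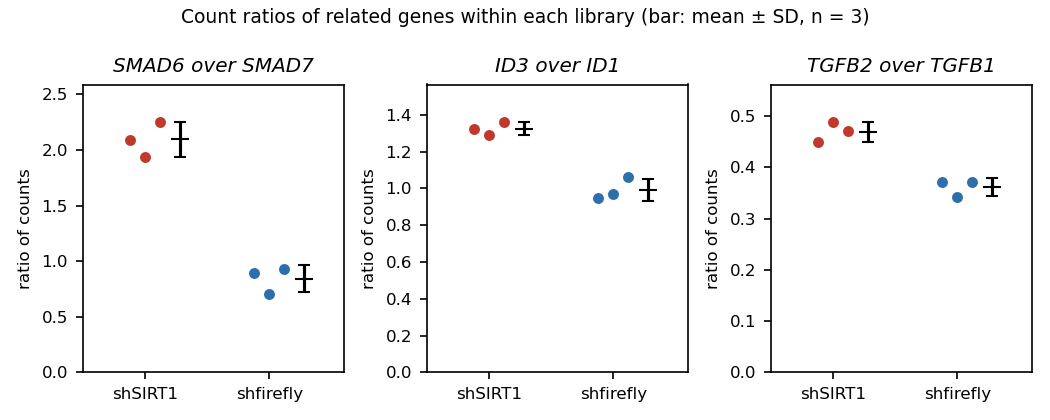
Ratio of the read counts of related genes within each library (linear axes from 0), shSIRT1 left and shfirefly right, with the mean ± SD of 3 libraries. The SMAD6 over SMAD7 ratio is above 1.9 in every shSIRT1 library and below 1 in every shfirefly library. ID3 over ID1 and TGFB2 over TGFB1 differ less, with no overlap of the groups in any panel. The ratio of SMAD6 over SMAD3, which is not drawn, is 2.58-fold higher on average in shSIRT1.

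The target genes did not move as a block. TGFBI, a matrix protein named for its induction by TGF-beta, lies on chromosome 5 (136028895 to 136063818, forward strand) and had the largest fall of the 9 genes. Its level was 195, 194 and 191 CPM in the shSIRT1 libraries, against 328, 348 and 313 CPM in the shfirefly libraries. The shSIRT1 libraries lay within a few CPM of each other and well below the others, with means of 193 ± 2.18 CPM and 329.8 ± 17.5 CPM (SD, n = 3) and a 1.70-fold lower mean (log2 difference -0.77, SE 0.04, adjusted p = 1.3e-12).

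ID1 and ID3 encode inhibitors of basic helix-loop-helix transcription factors and are classic BMP targets. ID1 (chromosome 20, 31605283 to 31606515, forward strand) had 95.6, 94.4 and 93.8 CPM in the shSIRT1 libraries, against 99.3, 103 and 102 CPM in the shfirefly libraries. The gap was narrow, with means of 94.6 ± 0.919 CPM and 102 ± 2.11 CPM (SD, n = 3) and a 1.07-fold lower mean (log2 difference -0.10, SE 0.04, adjusted p = 0.035). The call was lost without shfirefly replicate 2 (adjusted p = 0.099) and without shSIRT1 replicate 1 (0.062), 2 (0.082) or 3 (0.10), and in the authors' deposited table the adjusted p was 0.082. ID3 (chromosome 1, 23557918 to 23559794, reverse strand) rose. It had 126, 121 and 127 CPM in the shSIRT1 libraries, against 94.2, 100.3 and 108 CPM in the shfirefly libraries. All 3 shSIRT1 libraries were higher, with means of 125 ± 3.10 CPM and 101 ± 7.13 CPM (SD, n = 3) and a 1.24-fold higher mean (log2 difference 0.31, SE 0.05, adjusted p = 1.2e-05). Within a library there were 1.32, 1.29 and 1.36 ID3 reads for each ID1 read in shSIRT1, against 0.948, 0.970 and 1.06 in shfirefly. A further family member, ID2, had 10.8 ± 1.45 CPM in shSIRT1 cells, against 12.4 ± 1.08 CPM in shfirefly cells (SD, n = 3; adjusted p = 0.097, with calls of a lower level in 2 of the 17 other settings: 0.042 with upper-quartile factors and 0.025 without shSIRT1 replicate 1), and ID4 had too few reads to be tested.

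**Figure D3:**
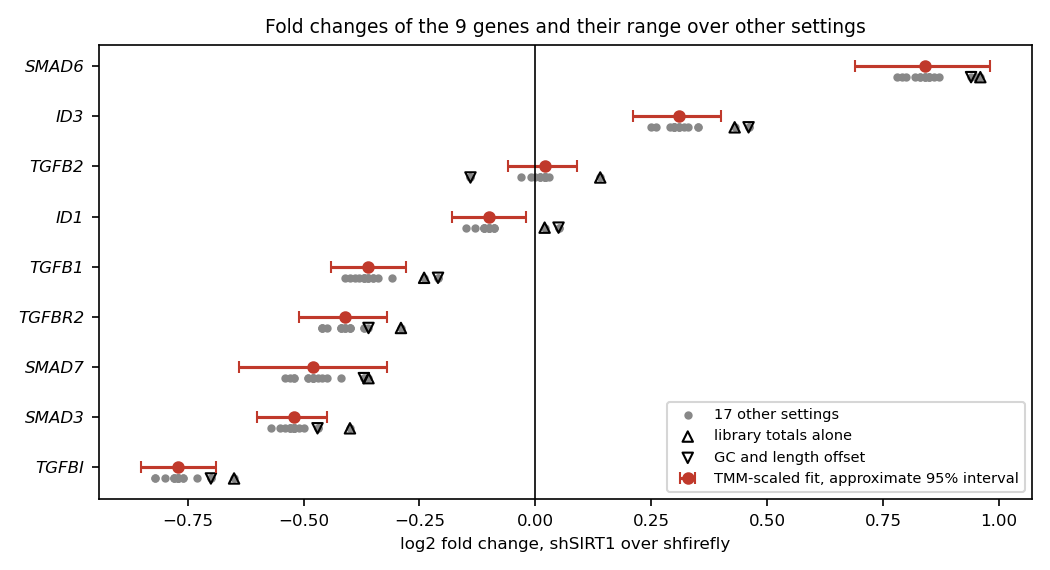
Log2 fold change of shSIRT1 over shfirefly for each of the 9 genes, with an approximate 95% interval (red), and the values under 17 other settings (grey), of which scaling by library totals and the GC and length correction are outlined. For 7 genes all settings keep the sign; ID1 and TGFB2 lie on both sides of 0, between -0.15 and 0.05 and between -0.14 and 0.14.

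Levels were compared between genes only per kilobase of the longest coding transcript in GENCODE 29. In shSIRT1 the order was ID3 (99.8 CPM per kb), TGFB1 (94.0), ID1 (76.7), TGFBI (69.0), SMAD3 (26.6), TGFB2 (24.2), TGFBR2 (18.4), SMAD6 (6.90) and SMAD7 (2.86). In shfirefly it was TGFB1 (121 CPM per kb), TGFBI (118), ID1 (82.4), ID3 (80.7), SMAD3 (38.2), TGFBR2 (24.6), TGFB2 (23.9), SMAD7 (3.99) and SMAD6 (3.85). Neighbours whose library ranges overlapped were ID3 and TGFB1 in shSIRT1, and TGFB1 with TGFBI, ID1 with ID3, TGFBR2 with TGFB2 and SMAD7 with SMAD6 in shfirefly. The inhibitory SMADs were the scarcest of the 9 genes per kb in both groups. The order depends on the length used: with the union of all annotated exons, which is longer for every gene but ID1, TGFBI stood at 24.8 CPM per kb in shSIRT1 and 42.2 in shfirefly, and SMAD6 at 3.09 and 1.73.

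**Figure D4:**
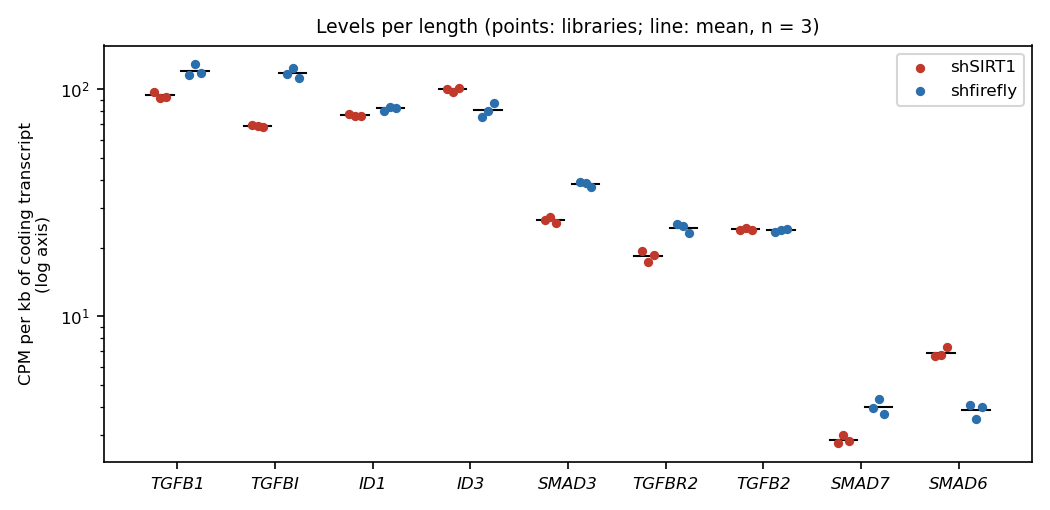
Level of each gene in CPM per kilobase of its longest coding transcript, on a log axis, in 3 shSIRT1 libraries (red, left of each pair) and 3 shfirefly libraries (blue), with the mean as a line. By mean, TGFB1, TGFBI, ID1 and ID3 form an upper group from 69.0 to 121, and SMAD6 and SMAD7 lie between 2.86 and 6.90. Single libraries run from 68.1 to 128.6 in the upper group and from 2.75 to 7.29 for SMAD6 and SMAD7.

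The rest of the pathway was read from lists by role, of which 105 genes outside the 9 were tested: 40 were lower in shSIRT1, 23 were higher and 42 did not pass. That is 60.0% called, against 52.8% of all tested genes, with a median log2 fold change of -0.08. With library totals alone, which moved the median of all tested genes to 0.13, 33 were lower and 41 higher. Among all tested genes the split was 4311 lower and 4449 higher, and 3021 lower and 6225 higher with library totals alone. As shares of all tested genes, 26.0% were lower and 26.8% higher, and every count per list below is to be read against these. No list was tested against them.

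Genes for ligands and for the latency of TGF-beta moved both ways, as did all tested genes (26.0% lower, 26.8% higher). Of 10 other tested genes for ligands and latency 4 fell, 2 rose and 4 did not pass (median -0.05), while 3 were called lower and 4 higher with library totals alone. LRRC32, which encodes GARP, a surface anchor of latent TGF-beta, had the largest log2 change among the 105 genes, with 6.31 ± 0.488 CPM in shSIRT1 cells, against 25.97 ± 1.76 CPM in shfirefly cells (SD, n = 3; 4.11-fold lower, adjusted p = 6.4e-14). The latent TGF-beta binding protein gene LTBP4 fell 1.45-fold (adjusted p = 1.9e-08). ITGB8, an integrin subunit that helps activate latent TGF-beta, rose 1.64-fold (adjusted p = 0.00075).

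Several ligands of the wider family were higher, and others were lower. Of 10 tested activin, BMP and GDF genes 5 rose, 3 fell and 2 did not pass (median 0.26), and 17 others of the 27 listed had too few reads. The activin subunit gene INHBB had 18.2 ± 0.944 CPM in shSIRT1 cells, against 10.7 ± 0.905 CPM in shfirefly cells, and BMP4 had 36.9 ± 2.48 and 26.4 ± 0.313 CPM in shSIRT1 and shfirefly (SD, n = 3; log2 fold changes 0.77 and 0.48, adjusted p = 1.2e-07 and 8.5e-07). BMP6 rose 1.54-fold (2.68 CPM in shSIRT1 and 1.74 CPM in shfirefly, adjusted p = 0.0067). BMP7 and the inhibin subunit gene INHA, both below 2 CPM, fell 1.89-fold and 2.35-fold (adjusted p = 0.0029 and 0.00028). The other gene that fell, GDF6, had 12.2 ± 0.748 CPM in shSIRT1 cells, against 20.7 ± 1.28 CPM in shfirefly cells (SD, n = 3). That was 1.7-fold lower (log2 fold change -0.77, adjusted p = 5.1e-08). Of 10 tested extracellular antagonists 4 fell, 1 rose and 5 did not pass (median -0.13), where 52.8% of all tested genes were called. The BMP antagonist gene NOG (noggin) fell to 18.2 ± 1.09 CPM in shSIRT1, against 30.5 ± 1.53 CPM in shfirefly. BGN, a small proteoglycan that binds TGF-beta, fell 2.34-fold (adjusted p = 2.6e-14). The activin antagonist gene FST was the member that rose, with 221 ± 14.5 CPM in shSIRT1 cells, against 149.8 ± 3.65 CPM in shfirefly cells (SD, n = 3; adjusted p = 1.1e-09).

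Of 15 other tested receptors and co-receptors 5 fell, 2 rose and 8 did not pass (median -0.11), while 4 were called lower and 5 higher with library totals alone. Endoglin (ENG), a co-receptor, fell to 403 ± 8.59 CPM in shSIRT1, against 721 ± 24.2 CPM in shfirefly (SD, n = 3; adjusted p = 8.8e-14), and the BMP type I receptor gene ACVR1 fell 1.49-fold (adjusted p = 1.8e-09). TGFBR3, the co-receptor of TGFB2, had 16.5 ± 0.225 CPM in shSIRT1 cells, against 9.79 ± 0.383 CPM in shfirefly cells (SD, n = 3; 1.69-fold higher, adjusted p = 8.7e-08). BMPR2 was the other gene called higher (log2 fold change 0.19, adjusted p = 0.012); its call was lost without shfirefly replicate 2 (adjusted p = 0.057) and its value was -0.05 with the GC and length correction.

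Among the other SMADs the BMP arm was divided. SMAD1 had 9.88 ± 0.510 CPM in shSIRT1 cells, against 6.75 ± 0.466 CPM in shfirefly cells, and SMAD5 had 107 ± 2.39 and 87.7 ± 2.41 CPM in shSIRT1 and shfirefly (SD, n = 3; adjusted p = 1e-04 and 4.1e-06), while SMAD9 fell 1.86-fold (adjusted p = 5.2e-09). The SMAD5 call was lost with the GC and length correction (log2 fold change 0.07, adjusted p = 0.21). SMAD2, the close relative of SMAD3, fell 1.19-fold (log2 fold change -0.25, adjusted p = 3.2e-05), which was -0.55 with the GC and length correction and -0.13 with library totals alone. The shared SMAD4 had a log2 fold change of -0.08 (adjusted p = 0.15) that was 0.04 with library totals alone and -0.21 (adjusted p = 0.00052) with that correction. Of 20 SMAD partners and intracellular regulators 5 fell, 6 rose and 9 did not pass; 3 were called higher without shfirefly replicate 1, and 13 with library totals alone. TGIF1, a co-repressor of SMADs, and PMEPA1, a TGF-beta-induced inhibitor of the pathway, fell 1.44-fold and 1.43-fold (adjusted p = 4.7e-09 and 2.4e-07).

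Genes known to be induced by TGF-beta were mostly lower: 17 of the 24 tested outside the 9 genes fell, 2 rose and 5 were not called (median -0.41). The matrix protein gene FN1 (fibronectin) fell to 9735 ± 514 CPM in shSIRT1, against 19857 ± 1488 CPM in shfirefly (SD, n = 3; 2.04-fold lower, adjusted p = 1.5e-09). VEGFA, an angiogenic factor gene that low oxygen also induces, fell 2.39-fold (adjusted p = 5.2e-16). CCN2, a standard TGF-beta target, had 56.4 ± 7.09 CPM in shSIRT1 cells, against 59.8 ± 1.91 CPM in shfirefly cells (SD, n = 3; adjusted p = 0.39; it was called lower, adjusted p = 0.016, without shSIRT1 replicate 2). The 2 genes called higher were ZEB1 and TAGLN; the count was 4 with the replicate block, 0 with upper-quartile factors or without shfirefly replicate 1, and 1 without shfirefly replicate 2, shSIRT1 replicate 1 or shSIRT1 replicate 3, while the count called lower was 15 to 18 in all 17 settings.

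BMP targets showed no common direction: 2 of the 13 tested outside the 9 genes rose, 4 fell and 7 were not called (median 0.00), while 3 were called higher and 2 lower with library totals alone. The background for the TMM-scaled counts is 26.8% higher and 26.0% lower among all tested genes. BAMBI, a decoy receptor induced by BMPs, fell to 21.0 ± 0.290 CPM in shSIRT1, against 30.6 ± 0.780 CPM in shfirefly (SD, n = 3; adjusted p = 1.5e-07), and GATA2, a transcription factor gene, rose 1.58-fold (adjusted p = 3e-04). Of the 3 genes of E proteins, the partners that ID proteins sequester, TCF4 rose 1.47-fold (log2 fold change 0.56, adjusted p = 3.4e-05; 0.36 with the GC and length correction), and TCF3 and TCF12 did not pass (adjusted p = 0.64 and 0.68), although all 3 were called higher with library totals alone, and 2 higher and 1 lower with the GC and length correction.

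**Figure D5:**
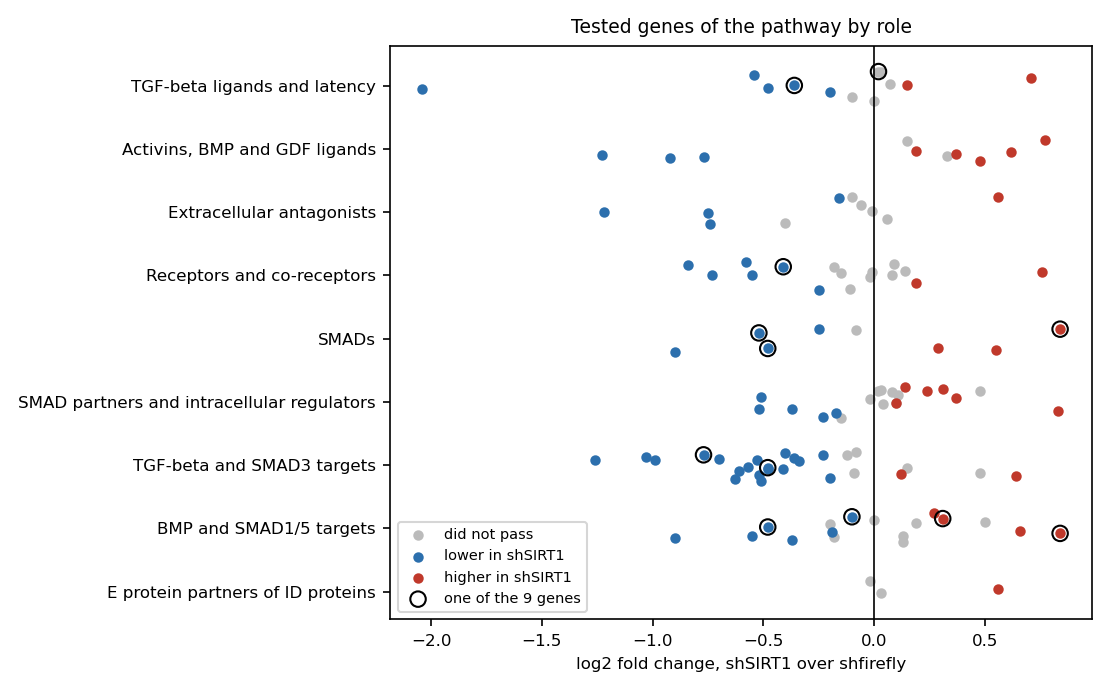
Log2 fold change of shSIRT1 over shfirefly for every tested gene of the 9 role lists, coloured by the call at an adjusted p under 0.05; circles mark the 9 genes, and genes on several lists appear in each row. TGF-beta and SMAD3 targets lie mostly left of 0 (17 of 24 lower outside the 9 genes), while BMP targets spread to both sides; ID1 changes sign when library totals alone or a GC and length correction are used.

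Genes most like 8 of the 9 in pattern were sought among 10809 other genes averaging at least 5 CPM, by the distance between log2 CPM profiles over the 6 libraries, each centred on its own mean. The nearest were PTTG1IP for TGFBI (distance 0.039), ASF1A for SMAD6 (0.12), GRK5 for SMAD3 (0.044), UBALD2 for TGFB1 (0.020), SLC35E2B for TGFBR2 (0.047), HOOK2 for SMAD7 (0.058), ANAPC4 for ID3 (0.022), and FLI1 for ID1 (0.030). With 6 libraries in 2 groups these distances mostly compare the size of the group difference, and they describe likeness in these libraries only.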

How the data were processed

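RNA was sequenced in 6 libraries (TruSeq Stranded mRNA, per the labels' protocols). The submitters' processing notes name Trimmomatic, STAR, DESeq2 and GRCh38; neither versions nor the read counter or strand setting is stated in those notes or labels. The authors' deposited table holds raw counts per gene (whole numbers), a score (normalized counts that the authors rounded, not used in tests), and the authors' log2 fold change and adjusted p-value from their own comparison. Columns were matched to samples by name.

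Counts were filtered with filterByExpr (16591 of 60691 genes), TMM-scaled (factors 1.038 to 1.048 for shSIRT1, 0.9475 to 0.9698 for shfirefly) and tested on group with edgeR 4.0.16 (robust glmQLFit, glmQLFTest; R 4.3.3). Standard errors are the absolute log2 fold change over the square root of F, and approximate 95% intervals use them. Alternatives were other scalings (RLE, upper quartile, library totals), DESeq2 1.42.0, other filters, non-robust fits, leaving out libraries, a GC and length offset (splines with 5 degrees of freedom; 99.1% of tested genes), and the replicate number as a block. Deviations of same-numbered libraries correlated at 0.163, 0.113 and 0.411, all over 0.1. However, shSIRT1 libraries 1 and 2 correlated best with shfirefly libraries 2 and 1, and only library 3 with its own number. The labels do not say what same-numbered libraries share, so whether the samples are paired is not known. The fits run here used group alone, without pairing, unless the replicate block is named. A chi-square statistic per gene of 2.82 to 6.10 within groups showed no duplicated library. It was 2.82 between shfirefly 1 and 2, but 5.8 and 6.10 between shfirefly 3 and these. Against the shSIRT1 libraries it was 57.4 to 66.7 for shfirefly 3 and 76.5 to 89.7 for shfirefly 1 and 2. The control library shfirefly 3 thus stood somewhat apart from its group. The procedure was also run on simulated counts with few genes changed, evenly in both directions, and no GC or replicate effect. That simulation does not cover changes as widespread as those seen here, nor the dependence on scaling.

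The genes and lists were chosen with earlier results of these data known. Named list genes were, per list, up to 2 rising and 2 falling called genes with the largest change and at least 1 CPM, not all described. CCN2, BMP4, INHBA, TGFBR1, SMAD4, TGFB3, ID2, ACVR1, HNRNPUL1 and GDF6 were chosen after their values were seen. Some genes that these rules name are not reported here. Gene positions and lengths are from GENCODE 29, matched by symbol. Promoter windows are RefSeq's (GRCh38.p14), with 16 windows for the 9 genes. A limit of 3 counts for an undetected gene covers counting error only.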

Additional observations from a re-analysis of the deposited data

How the results depend on the processing

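TGFB1, TGFBR2, SMAD3, SMAD6, SMAD7, ID3, TGFBI, SIRT1 and EPAS1 kept their direction and stayed past the threshold in all 17 alternatives. ID1 did not: its log2 fold change was 0.02 with library totals alone, and 0.05 with the GC and length offset both with and without the replicate block. It was -0.10 (adjusted p = 0.084) with DESeq2, -0.09 (adjusted p = 0.12) with no filter on low counts and -0.09 (adjusted p = 0.10) without both libraries numbered 3, and -0.13 to -0.09 when each library was left out in turn. TGFB1 was -0.21 with the GC and length offset. TGFB2 was 0.14 with library totals alone and -0.14 with the GC and length offset, with or without the block. The pathway genes called higher numbered 41 with library totals alone, and 23 in the TMM-scaled fit. BMPR2 turned to -0.05 with the GC and length offset, with and without the block, and TGFBR1 to 0.11 with library totals alone. Why these settings moved the values was not tested. Adding the replicate block to the TMM-scaled fit changed no call of a named gene; among counts of calls it moved by over 1.5 times only the TGF-beta targets called higher, to 4, and the pathway genes called higher numbered 26. Outside the 9 genes and the hairpin's 2 named targets, 46 named genes were followed over the settings, GDF6 not among them. Of the 46, 14 changed call or direction in some setting. Of 374 counts per list, 30 moved by over 1.5 times. Low-count genes such as INHA and BMP7 rest on few reads, and 3 libraries per group limit every comparison.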
